A study of Mus musculus with 3 samples.

Results

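The RNA of 9 genes that encode leukocyte adhesion receptors was described in bone marrow cells of mice with TBLR1-RARα (TR) leukemia and of healthy mice. The genes are Itgal, Itgam, Itgax and Itgb2 of the β2 integrins, Itga4, Itga5, Itga6 and Itgb1 of the β1 integrins, and Selplg, the ligand of the selectins. They were chosen by name, all 9 were found by NCBI Gene ID among the 16742 genes listed in the series, and all 9 were listed in every library. The series holds 3 RNA-seq libraries, 1 per condition, from C57BL/6 mice whose age the labels give as 6 to 8 weeks. Control RNA came from lin- marrow cells, those left after cells with mature lineage markers are depleted, and pooled 3 wild type mice. For TR1 and for TR9, GFP+ cells were sorted from the bone marrow of 3 mice each, genotype TBLR1-RARa. TR1 and TR9 name the primary leukemia mice, each a single mouse, from which cells were passed on to the third generation of recipients that was sequenced. The fusion gene was expressed from a retroviral MSCV vector with IRES-GFP in transduced lin- cells, so it is not under its own promoter, and the control cells carry neither vector nor GFP.

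An integrin is a pair of 1 α and 1 β chain that spans the membrane and binds ligands on other cells or in the matrix. Leukocyte integrins are held in a bent, inactive form until talin and kindlin bind the tail of the β chain, a step driven by the small GTPase Rap1. β2 integrins bind the ICAM proteins, fibrinogen and complement fragments, and carry leukocytes through vessel walls, whereas α4β1 and α5β1 hold hematopoietic cells in the marrow through VCAM-1 and fibronectin. Selectins capture rolling leukocytes by the sugar-modified protein PSGL-1, the product of Selplg. CD11b, the product of Itgam, is a standard surface marker of granulocytes and monocytes, and lineage depletion kits for mouse marrow usually include an antibody against it. The level of Itgam in control, and with it any ratio of Itgam against control, therefore cannot be told apart from the removal of CD11b+ cells. Removal of mature cells may also change the control level of the other genes, Itgal and Itgb2 included. Its part in their ratios against control was not tested.

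Sequence upstream of the transcription start was looked up in RefSeq (GRCm38.p6) and was found for 5 of the 9 genes, Itgam, Itgax, Itgb1, Itga4 and Itga5. The 250 bases before the start are shown for Itgam and Itgax, which lie next to each other with 0 coding genes between them, and for Itga4, whose level was the highest of the α chains among the 9 genes in control. Capitals mark matches on either strand to 4 motifs. The core bound by the myeloid factor PU.1 was spelled gaggaa. The GC box was spelled gggcgg. For the box near many promoters that binds the TATA protein, the letters were tataaa. The half-site of retinoic acid receptors was searched as aggtca.
Itgam, chr7:128062390-128062639, plus strand: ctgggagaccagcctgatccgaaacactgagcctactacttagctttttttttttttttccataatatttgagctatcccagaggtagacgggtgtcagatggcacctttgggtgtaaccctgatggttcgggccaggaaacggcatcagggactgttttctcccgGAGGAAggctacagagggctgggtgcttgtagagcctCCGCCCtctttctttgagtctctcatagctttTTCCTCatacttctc
Itgax, chr7:128129300-128129549, plus strand: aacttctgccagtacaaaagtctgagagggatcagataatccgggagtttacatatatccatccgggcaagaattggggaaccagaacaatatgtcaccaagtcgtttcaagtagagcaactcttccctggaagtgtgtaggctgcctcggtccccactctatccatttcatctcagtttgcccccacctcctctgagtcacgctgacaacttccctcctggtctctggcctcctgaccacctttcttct
Itga4, chr2:79255176-79255425, plus strand: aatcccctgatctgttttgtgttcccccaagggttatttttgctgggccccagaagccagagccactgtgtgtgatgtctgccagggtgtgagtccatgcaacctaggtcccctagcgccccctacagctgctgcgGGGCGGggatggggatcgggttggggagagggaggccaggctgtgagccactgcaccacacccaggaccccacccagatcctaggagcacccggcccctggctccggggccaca
The window of Itgam held 2 matches to the PU.1 core, a sequence present in 23.3% of 32851 such windows in the genome, and 1 GC box, present in 32.7%. That of Itga4 held 1 GC box and no PU.1 core. None of the 4 motifs was in the window of Itgax. The TATA box (12.4% of windows) and the retinoic acid half-site (14%) were in none of the 5 windows found. These letter matches describe the sequence only and do not show that a factor binds there.

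Expected counts, the read numbers that RSEM assigns to a gene, summed to between 5129662 and 5571409 per library, and 14642 to 15302 genes were listed. A count of 3 was used as the floor of detection. Levels are given as FPKM, which scales counts for gene length and library total. Libraries were compared in pairs by the log2 ratio of FPKM and a Poisson test on their counts. Following the thresholds of the study's methods, a gene was called upregulated or downregulated where its log2 ratio was 1 or more in size with a false discovery rate no higher than 0.001. Where 3 values are given without a library, they are those of control, TR1 and TR9 in this order, and pairs of log2 ratios are those of TR1 and TR9 against control. With 1 library per condition the differences have no replicate check. The test compares the reads of 2 pools of mice, not the conditions, and every interval below is a 95% exact (Clopper-Pearson) interval of the count ratio that covers counting error only. When a variation between libraries, each a pool of mice, of 0.4 (coefficient of variation) was assumed in edgeR's exact test, no call remained for any of the 9 genes. In bulk RNA, fewer cells of a type and less RNA per cell cannot be told apart. The control preparation was mixed, and genes of erythroid cells (7 markers, summed FPKM 2020 in control, 6.75 in TR1 and 11.4 in TR9), of megakaryocytes and platelets (8 markers, 1000, 4.12 and 3.16) and of stroma and endothelium (8 markers, 509, 6.90 and 8.74) were far higher in it. An exception was Lepr, a stroma gene that was upregulated in TR1 (1.14). Of these genes, Epor was at 0 in TR1, and Pf4, Gp6, Alas2, Kdr, Emcn and Lum at 0 in both. Primary granule genes summed to 4100, 20500 and 23300, and 9 genes of late granulocytes to 97.3, 23200 and 8950, with 9 upregulated in TR1 and 7 in TR9.

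The 9 genes covered a wide range of levels, and their order changed between the libraries. In control, Itgb1 was highest at 103.85 FPKM, followed by Itga4 at 84.91 and Selplg at 82.64, and then by Itga6 at 40.20. In TR1 the highest was Itgal at 87.96, ahead of Selplg at 64.05, Itga4 at 57.44 and Itgb1 at 52.68. In TR9 it was again Itgb1, at 72.97, ahead of Selplg at 69.86, and Itgal was the third at 47.16. Neighbors such as Itga4 and Selplg in control, or Itgb1 and Selplg in TR9, differed by little, and no replicate shows whether such an order would hold. Itgax was lowest in all 3 libraries, at 1.19, 0.92 and 0.62 FPKM. The sum over the 9 genes was 395.1 FPKM in control, 372.4 in TR1 and 267.4 in TR9.

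**Figure D1:**
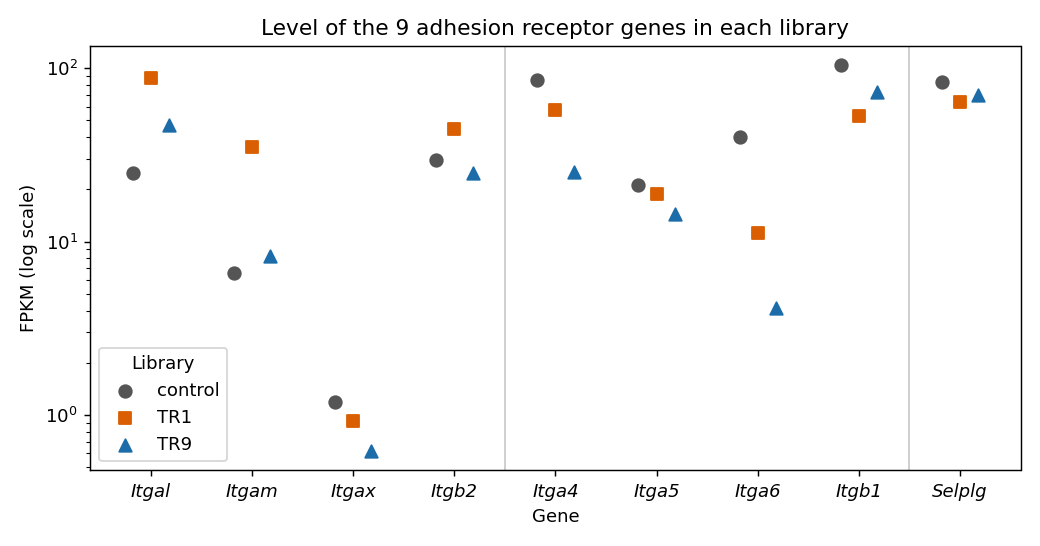
FPKM (log axis) of the 9 genes in the control, TR1 and TR9 libraries, 1 point per library, with the β2 integrin genes on the left, the β1 integrin genes in the middle and Selplg on the right. Itgal and Itgam were highest in TR1, Itga6 and Itga4 were highest in control and lowest in TR9, and Selplg lay between 64.05 and 82.64 in all 3.

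Against control, TR1 had 2 of the 9 genes upregulated (Itgam and Itgal) and 1 downregulated (Itga6), where 8.09% of the 16282 genes tested were upregulated and 13.0% downregulated. TR9 had 0 upregulated and 2 downregulated (Itga4 and Itga6), beside 9.37% and 10.8% of 16303 genes. The median log2 ratio of the 9 genes was −0.37 in TR1 and −0.51 in TR9, beside −0.29 and −0.12 over all genes. The 2 comparisons share the control library. Other ways of scaling moved every ratio by up to 0.25 on the log2 scale in TR1 and 0.11 in TR9. With TMM scaling, which sets the bulk of genes level, the shifts taken out were −0.25 and −0.11, and 48.4% instead of 61.7% of all called genes were downregulated in TR1 (46.7% instead of 53.6% in TR9). Itgal was then also upregulated in TR9, with a log2 ratio of 1.03. With TPM scaling 73.3% of the calls in TR1 were downregulated and Itgb1 was among them, with a log2 ratio of −1.20.

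Among the β2 integrin genes, the α chains of the LFA-1 and Mac-1 receptors were upregulated in TR1, and neither Itgax nor the β chain was called. Itgal (NCBI Gene 16408) encodes CD11a, the α chain of LFA-1, which binds ICAM proteins in adhesion between leukocytes and to endothelium. Its expected counts were 721 (control), 2591 (TR1) and 1277 (TR9), so both TR libraries were above control. TR1 had a log2 ratio of 1.82 (95% interval 1.70 to 1.94), and TR9, at 0.92 (0.79 to 1.06), lay just short of the threshold. In rank, Itgal stood above 76.7% of the listed genes in control, 94.8% in TR1 and 89.0% in TR9.

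Itgam (16409), the α chain of Mac-1, which binds the complement fragment iC3b and fibrinogen, had 171, 921 and 199 counts, or 6.59, 34.91 and 8.21 FPKM. TR1 stood apart, and TR9 lay close to control. The difference in TR1 was 5.30-fold (4.50 to 6.28), a log2 ratio of 2.41, whereas the log2 ratio in TR9 was 0.32 (0.01 to 0.62). Itgax (16411), which encodes CD11c, an integrin chain typical of dendritic cells, had only 26.5, 20.9 and 13.0 counts. Its intervals of −1.28 to 0.49 in TR1 and −2.03 to 0.05 in TR9 include 0, so no difference was detectable at this depth. Of 7 dendritic cell markers, Zbtb46 and Cd209a were at 0 in both TR libraries and Flt3 and Bst2 had the highest levels. The counts of Itgam and Itgax were not whole numbers in at least 1 library, since RSEM divides reads that match several genes, and part of the reads of Itgax may belong to its neighbor Itgad.

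Itgb2 (16414), the common β chain without which no β2 integrin reaches the cell surface, had 468, 714 and 366 counts in the same order of libraries. The values were 29.68, 44.49 and 24.81 FPKM, highest in TR1 and lowest in TR9. Neither the log2 ratio of 0.58 (0.42 to 0.76) in TR1 nor that of −0.26 (−0.46 to −0.06) in TR9 reached the threshold. The 4 α chains that pair with it, Itgal, Itgam, Itgax and Itgad, summed to 34.81 FPKM in control, 123.8 in TR1 and 55.99 in TR9. Per unit of Itgb2, this sum was 1.17 in control, 2.78 in TR1 and 2.26 in TR9. Itgal was most of it in every library, at 71.6%, 71.0% and 84.2%. Itgam took 18.9%, 28.2% and 14.7%. On expected counts the share of Itgam was 17.7% (95% exact binomial interval 15.4 to 20.3) in control, 26.1% (24.6 to 27.5) in TR1 and 13.4% (11.7 to 15.2) in TR9. Itgad, which encodes the related chain CD11d, had 46.5, 1.05 and 0 counts. It was downregulated in both TR libraries, by a factor of at least 14.5 in TR9 when set to the floor of 3 counts.

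Of the α chains that pair with Itgb1 among the 9 genes, Itga6 was downregulated in both TR libraries, Itga4 in TR9, and Itga5 in neither. Itga6 (16403) encodes the laminin-binding α6 chain, which is found on stem cells, megakaryocytes and epithelia. It had 935, 266 and 90 expected counts, or 40.20, 11.24 and 4.13 FPKM, and both TR libraries were well below control. The level was 3.58-fold lower in TR1 (log2 ratio −1.84, −2.04 to −1.64) and 9.73-fold lower in TR9 (−3.28, −3.61 to −2.97). The summed levels of megakaryocyte and platelet, stroma and endothelium, and erythroid genes, given above, were also lower in both TR libraries than in control. So was that of 7 stem and progenitor genes, at 208, 73.9 and 75.8 FPKM. Of these 7, 1 was upregulated and 5 were downregulated in TR1, and 0 and 4 in TR9. The upregulated gene was Flt3, at 16.16 FPKM in control and 38.44 in TR1. Kit, at 73.49 FPKM in control and 62.55 in TR9, was not called in TR9 and made up most of the sum there. The part of such cell types in the difference of Itga6 was not tested.

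Itga4 (16401) encodes the α4 chain, which makes the VCAM-1 receptor VLA-4 with Itgb1 and a gut homing receptor with Itgb7. Its counts were 4641, 3196 and 1288, and its levels 84.91, 57.44 and 25.19 FPKM, so TR1 lay between the other libraries. The log2 ratio was −0.56 in TR1 (−0.63 to −0.49), short of the threshold, and −1.75 in TR9 (−1.84 to −1.66), a 3.37-fold difference that was called. The counts of Itga4 were not whole in any library. Itga5 (16402), the α chain of the fibronectin receptor, varied less, with 514, 463 and 330 counts and 21.13, 18.70 and 14.49 FPKM. In TR1 its log2 ratio of −0.18 (−0.36 to 0.01) included 0 and turned positive under TMM (0.07), median of ratios and upper quartile scaling, and in TR9 it was −0.54 (−0.75 to −0.34).

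Itgb1 (16412), the β chain shared by these receptors and by integrins of most tissues, had 2409, 1244 and 1584 counts. Unlike Itga4 and Itga6, it was lowest in TR1, at 52.68 FPKM against 72.97 in TR9 and 103.85 in control. The log2 ratio of −0.98 in TR1 (−1.07 to −0.88) lay just short of the threshold, and that in TR9 was −0.51 (−0.60 to −0.42). The sum of Itga4, Itga5 and Itga6 per unit of Itgb1 was 1.41 in control, 1.66 in TR1 and 0.60 in TR9. Within that sum, Itga6 had 27.5%, 12.9% and 9.43% of the FPKM, and Itga5 had 14.4%, 21.4% and 33.1%. Itgb1 was 3.5 times as high as Itgb2 in control, 1.18 times in TR1 and 2.94 times in TR9.

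**Figure D2:**
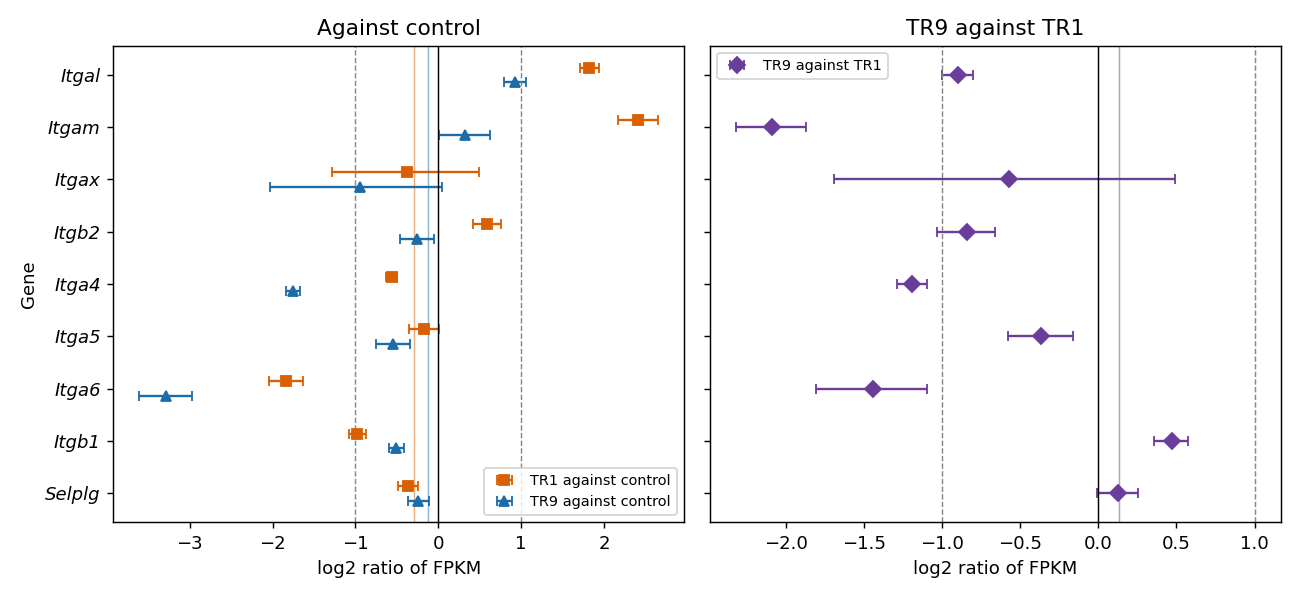
Log2 ratio of FPKM of the 9 genes in TR1 and TR9 against control (left) and in TR9 against TR1 (right), with bars for the 95% exact interval of the count ratio (counting error only). Dashed lines mark log2 ratios of −1 and 1 and thin colored lines the median over all genes tested; Itgam and Itgal in TR1, Itga6 in both and Itga4 in TR9 lie outside the dashed lines on the left.

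**Figure D3:**
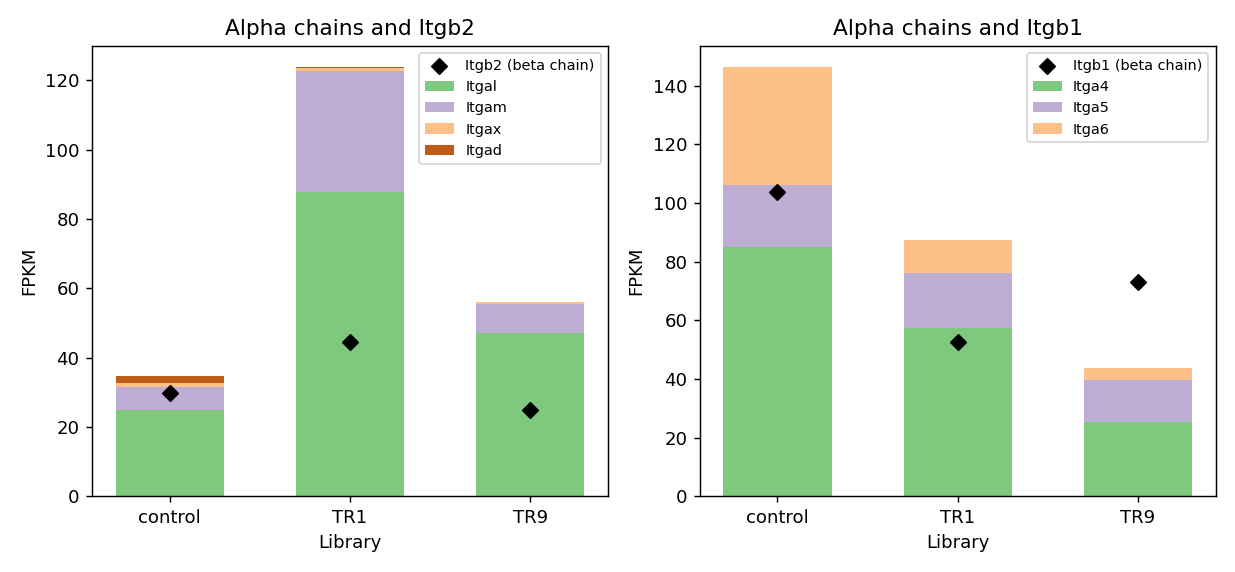
Stacked bars of FPKM, from 0, of the α chains that pair with Itgb2 (left) and of Itga4, Itga5 and Itga6 (right) in each library, with the β chain as a black diamond. The β2 α chains reach 123.8 in TR1 against 34.81 in control, and the sum of Itga4, Itga5 and Itga6 is above Itgb1 in control and TR1 and below it in TR9.

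Selplg (20345), the ligand of the selectins, was the most even of the 9 genes. It had 1184, 934 and 937 counts, none of them whole before rounding, and 82.64, 64.05 and 69.86 FPKM. The log2 ratio was −0.37 in TR1 (−0.49 to −0.24) and −0.24 in TR9 (−0.37 to −0.12), and the gene stood above 92.5% to 93.9% of listed genes in the 3 libraries.

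TR9 and TR1 were both sorted for GFP, so this comparison does not involve the depletion step. In TR9, 3 of the 9 genes were downregulated relative to TR1 (Itgam, Itga4 and Itga6) and 0 upregulated, where 2.31% of 15706 genes were downregulated and 4.34% upregulated. The median log2 ratio of the 9 genes was −0.84, against 0.13 over all genes. Itgam was 4.25-fold lower, with a log2 ratio of −2.09 (−2.32 to −1.87). Itga6 was at −1.44 (−1.81 to −1.09) and Itga4 at −1.19 (−1.29 to −1.10). Itgal, at −0.90 (−1.0 to −0.80), was called with TMM, median of ratios and upper quartile scaling. Itgb2 was at −0.84 (−1.03 to −0.66), and Itgb1 went the other way, at 0.47 (0.36 to 0.58). With an assumed variation between libraries of 0.2, Itgam alone of the 3 kept its call. Late granulocyte genes also differed between these libraries, with summed FPKM of 23200 in TR1 and 8950 in TR9 and 5 of 9 downregulated and 2 upregulated in TR9. Their part in the differences of the integrin genes was not tested.

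Of 19 other integrin subunits, 17 were listed in a library, with 1 upregulated and 7 downregulated in TR1 and 1 and 5 in TR9. The counts of this and the next lists stand beside 8.09% of all genes upregulated and 13.0% downregulated in TR1, and 9.37% and 10.8% in TR9. The medians of their log2 ratios were −1.41 (TR1) and −1.0 (TR9), and that of TR1 was −1.02 when genes at 0 counts were set to the floor. Itgb2l, a mouse β2-like chain of neutrophils, had a single count (1) in control, against 159 in TR1 and 40 in TR9. It was upregulated in both, with log2 ratios of 7.27 (4.79 to 12.60) and 5.41 (2.86 to 10.76), and was lower in TR9 than in TR1 by 1.87 on that scale. Itgb7, the other partner of Itga4, had 251, 96 and 83 counts and was downregulated in both TR1 and TR9 (−1.41 and −1.50). The platelet fibrinogen receptor genes Itga2b and Itgb3 had 1810 and 1921 counts in control and at most 44 in a TR library. Itga2, of the platelet collagen receptor, went from 122 counts to 0 and 0. With the floor in place of 0, these are drops of at least 41.3-fold and 38.0-fold. Itga1 and Itgb5 were downregulated in TR1 (−1.93 and −1.86) and not in TR9 (0.40 and 0.05), and TR9 against TR1 gave 2.33 and 1.91, both called. Itgav had log2 ratios of 0.70 and 0.55. Itga9 had 17, 27.4 and 4.01 counts and was not called against control. In TR9 against TR1 it was downregulated, at −2.65 (−4.61 to −1.11). Itga3, Itgae and Itgb4 had 6 counts or fewer in every library. None of Itga7, Itga8, Itga10 and Itga11, which also pair with Itgb1, was called, and Itga10 had 28, 21 and 13 counts.

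Ligands of the integrins were measured in the same cells, and Vcam1, Fn1 and C3 rose in both TR libraries. Of 24 ligand genes, 18 were listed, with 5 upregulated and 4 downregulated in TR1 and 7 and 5 in TR9. Their median log2 ratio was 1.06 in TR9. For TR1 the median was −0.03, and it was 0.20 with genes at 0 set to the floor and 0.22 with TMM scaling. Vcam1, whose product is bound by α4β1, had 471, 3139 and 5110 expected counts. The log2 ratio was 2.71 in TR1 (2.57 to 2.86) and 3.54 in TR9 (3.40 to 3.68), opposite in sign to that of Itga4 in both libraries. Vcam1 is also a gene of marrow macrophages and was 1 of 11 monocyte and macrophage markers, of which 3 were upregulated and 6 downregulated in TR1, and 2 and 8 in TR9. Their summed FPKM was 237, 395 and 399, of which Vcam1 itself made up 25.11, 164.41 and 291.13. The rise of this sum in TR9 therefore does not describe the other markers. Cd68 was upregulated in both (2.88 and 1.44) and Adgre1 in TR1 (2.22), whereas C1qa, C1qb and C1qc were downregulated in both and C1qc was at 0 in TR1. The part of such cells in the level of Vcam1 was not tested. Fn1, which encodes fibronectin, rose from 7.49 FPKM to 97.51 in TR1 and 30.74 in TR9, by log2 ratios of 3.70 and 2.04. C3, whose cleavage yields the Mac-1 ligand iC3b, was upregulated by 3.93 and 3.84.

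Among the ICAM genes, Icam1 had 51, 27 and 3 counts and was downregulated in TR9 (−3.99, −6.31 to −2.36). Icam2 had 15.99, 29.24 and 30.80 FPKM and log2 ratios of 0.87 and 0.95. Icam4, of red cells, had 67, 0 and 0 counts, which set to the floor is a drop of at least 22.7-fold in TR1 and 20.9-fold in TR9. Thrombospondin (Thbs1), of platelet granules, fell by 4.44 and 4.58 on the log2 scale, and Cdh1, the E-cadherin bound by CD103 integrins, had 231, 1 and 1 counts.

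Of the genes of the vascular selectins, which bind the product of Selplg, Selp was lower in the TR libraries and Sele was not called. Selp, or P-selectin, of platelets and endothelium, had 175, 17 and 10 counts and was downregulated (−3.39 and −4.04). Sele, of activated endothelium, had 17, 10 and 22 counts, and its intervals against control included 0. Of 12 selectins and other selectin ligands, 11 were listed, with 1 upregulated and 5 downregulated in TR1 and 1 and 6 in TR9, and medians of −2.59 and −1.17 (−2.14 in TR1 with genes at 0 set to the floor). Cd34, a progenitor sialomucin, was among the downregulated genes (−3.71 and −4.13), as was Cd24a (−2.59 and −1.17).

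**Figure D4:**
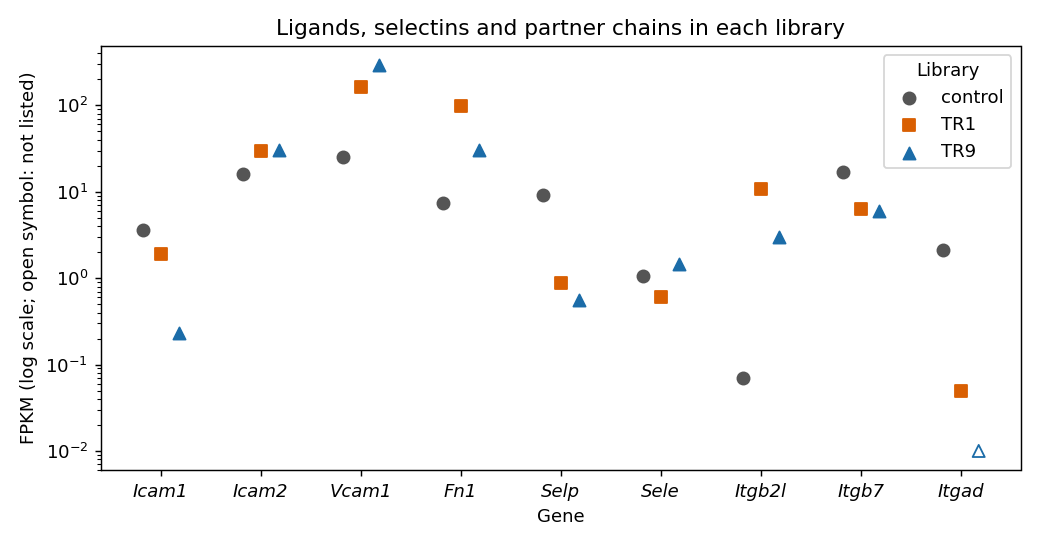
FPKM (log axis) of 4 integrin ligands, the selectin genes Selp and Sele and 3 other integrin chains in the control, TR1 and TR9 libraries, 1 point per library, with an open symbol at 0.01 for a gene not listed. Vcam1, Fn1 and Itgb2l lie higher in both TR libraries than in control, and Selp, Itgb7 and Itgad lie lower.

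The enzymes that give PSGL-1 its selectin-binding sugars and sulfate were listed for 16 of 16 genes, of which 15 could be compared in TR1. In TR1, 1 was upregulated and 5 were downregulated, and in TR9 1 and 3, with medians of −0.18 and −0.25. The median in TR1 was 0.07 with TMM scaling. Fut4, a fucosyltransferase, was upregulated in both (1.87 and 1.93), while Fut7, the main leukocyte enzyme for this step, had 79, 88 and 63 counts and intervals against control that included 0. Gcnt1, which builds the core branch of the sugar chain, had 15.42, 21.97 and 5.66 FPKM and was downregulated in TR9 (−1.45, −1.74 to −1.16). The tyrosine sulfotransferase Tpst1 was downregulated in both (−2.41 and −2.10), and Tpst2 had log2 ratios of −1.17 and −0.64. St3gal6, a sialyltransferase, had 111, 0 and 1 counts, a drop of at least 37.6-fold in TR1 at the floor, whereas St3gal4 had log2 ratios of −0.18 and −0.22.

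For the genes that activate integrins from inside the cell, 30 of 30 were listed, with 4 upregulated and 4 downregulated in TR1 and 3 and 3 in TR9. The medians were −0.27 and −0.23, beside −0.29 and −0.12 over all genes. Fermt3, the kindlin of blood cells, was downregulated in both, from 161.32 FPKM to 45.77 in TR1 and 65.85 in TR9 (−1.82 and −1.29). Tln1, or talin, had 145.95, 95.13 and 90.71 FPKM and log2 ratios of −0.62 and −0.69. Fyb, the ADAP adaptor of this pathway, was downregulated by log2 ratios of −1.26 and −2.81. Prkcb, a protein kinase C, was upregulated by 1.84 and 2.54, and Cytip, a partner of the cytohesin exchange factors, by 2.03 and 1.42.

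Of 31 genes of signaling and attachment downstream of integrins, 31 were listed, with 7 upregulated and 7 downregulated in TR1 and 4 and 5 in TR9. The medians of 0.12 and 0.10 turned to −0.10 and −0.01 with TPM scaling. The kinase gene Fgr, of the Src family in myeloid cells, had 20, 239 and 48 counts and was upregulated in both (3.55 and 1.36). Its relative Src had 139, 0 and 1 counts, at least 47.0-fold lower in TR1 at the floor. Tyrobp, a signaling adaptor of β2 integrins, was chosen after its values were seen because it followed Itgam. It had 68.76, 271.18 and 70.00 FPKM, was upregulated in TR1 (1.98), was at 0.03 in TR9, and had a log2 ratio of −1.95 when TR9 was set against TR1. The adhesion site genes Vcl, for vinculin (−1.55 and −2.02), and Parvb (−8.57 and −6.68) were downregulated in both. Kindlin, vinculin, Thbs1, Selp and the chains Itga2b and Itgb3 are also abundant in platelets, and the part of the megakaryocyte and platelet genes, given above, in these differences was not tested.

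**Figure D5:**
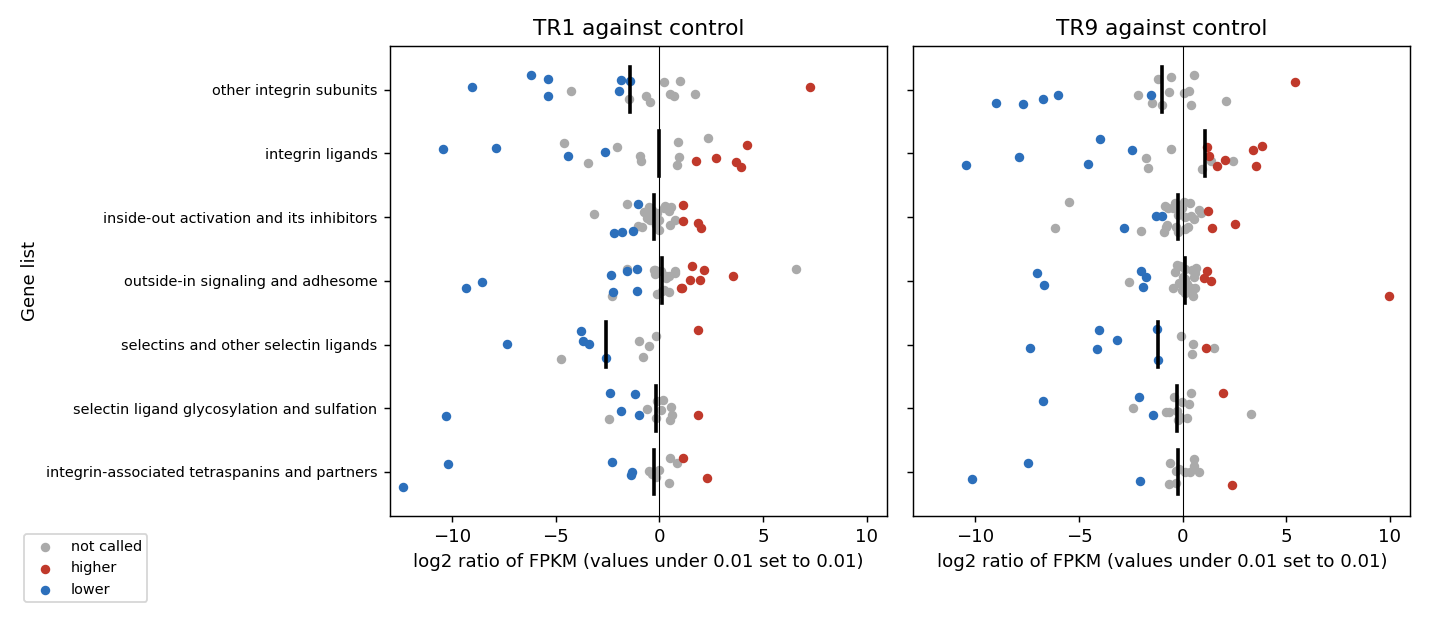
Log2 ratio of FPKM of each listed gene in 7 lists around the integrin and selectin receptors, in TR1 (left) and TR9 (right) against control; points are genes, colored by call, and black bars are list medians. The median of the other integrin subunits lies at −1.41 in TR1 and −1.0 in TR9, and far left points are genes at or near 0 in a TR library, whose position rests on the floor of 0.01 FPKM.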

How the data were processed

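RNA-seq of 3 libraries, each a pool of 3 mice, was analysed. Per the study's methods, clean reads were aligned by the authors (BWA, Bowtie), RSEM gave the value of each gene, and the submitters' processing notes name mm9. Expected counts were deposited by the authors without normalization and FPKM as scaled by RSEM, with the length of each gene in bases. Versions of these tools are not given in the sources used here. As the reference is GRCm38.p6, it was used for names (16698 of 16742 IDs) and promoter sequences, not for gene coordinates. No protein sequences were used here, so the planned description of proteins was not made.

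In each library 19.9% to 21.2% of expected counts were not whole, and they were rounded. Pairs of libraries were then tested with the conditional exact (two-sided) Poisson test with Benjamini-Hochberg adjustment over all genes listed in either. FPKM under 0.01 were set to 0.01 for the log2 ratio, and genes not listed were taken as 0. No residual degrees of freedom exist with 1 library per group, so DESeq2 and the quasi-likelihood test of edgeR were not run. Folds against 0 used 3 counts per library. PCR duplicates are not independent molecules, and intervals cover counting error only. The steps were tested on simulated Poisson counts. These hold no variation between mice, so they could only check that the steps run as written. Python 3.11.15, scipy 1.17.1, pandas 2.3.3, R 4.3.3 and edgeR 4.0.16 were used.

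The 9 genes, and the lists, were chosen with earlier results of these data known. By a rule, the text names the 9 genes, their partner chains, main ligands, selectins, talin and kindlin whatever their values, and from each list up to 4 genes with the largest mean log2 ratio called alike in TR1 and TR9 with at least 5 FPKM in a library; some were left to the observations, and some named by the rule are not reported here. Tpst2, Gcnt1, Fut7, St3gal4, Itgb5, Tyrobp, Itga7, Itga8, Itga10, Itga11 and the single marker genes were added after their values were seen. The 3 genes most like each of the 9 were those with at least 50 counts and the smallest distance in the 2 log2 ratios against control. Alternatives were TMM, median of ratios, upper quartile and TPM scaling, CPM, a pseudocount of 1 FPKM, a minimum of 10 counts, edgeR's exact test with an assumed variation of 0.2 or 0.4, a false discovery rate of 0.05, and absolute log2 ratios of at least 2 or a 1.5-fold difference.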

Additional observations from a re-analysis of the deposited data

Results flagged for a closer look

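The ratios of 3 genes against control differed between the TR lines when TR9 was compared directly with TR1. The log2 ratio of TR9 against TR1 was −2.09 for Itgam, −1.19 for Itga4 and −1.44 for Itga6. The comparison rests on the reads of 1 library per line. Groups of 1 library could not be examined for outlying samples.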

How the results depend on the processing

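Of 324 recalculated log2 ratios of the 9 genes (27 ratios under 12 alternatives), 295 kept their direction and their side of the threshold, 15 lost and 10 gained a call, and 4 changed sign. Those that changed sign were Itga5 in TR1 against control (0.074 with TMM, 0.061 with median of ratios and 0.036 with upper quartile scaling) and Selplg in TR9 against TR1 (−0.0071 with TMM). With TMM or upper quartile scaling 1 of the 9 genes was upregulated in TR9 against control, with TPM scaling 2 were downregulated in TR1. With an assumed variation of 0.2, 1 was downregulated in TR9 against TR1, and with 0.4, 0 were called in any comparison. An absolute log2 ratio of at least 2 left 1 upregulated and 0 downregulated in TR1, 1 downregulated in TR9 and 1 in TR9 against TR1. A 1.5-fold difference gave 2 downregulated in TR1, 1 upregulated in TR9 and 5 downregulated in TR9 against TR1. Under another threshold or an assumed variation the change follows from that setting itself, and for the changes with scaling the cause was not tested. Over all genes, upregulated and downregulated calls with an assumed variation of 0.2 were 657 and 992 in TR1, 717 and 830 in TR9, and 188 and 94 in TR9 against TR1. With 0.4 they were 170 and 347, 161 and 287, and 13 and 2. With an absolute log2 ratio of at least 2 they were 685 and 1133, 738 and 928, and 283 and 135. A 1.5-fold difference gave 3412 downregulated genes in TR1, 2839 in TR9, and 1243 upregulated and 626 downregulated in TR9 against TR1. Among 40 other named genes, 1213 of 1327 recalculated ratios kept their side. Of these, TR9 against TR1 changed sign for Cd63 (−0.025 with TMM, −0.012 with median of ratios), Fut4 (−0.069, −0.056 and, with upper quartile, −0.042), Icam2 (−0.057, −0.044 and −0.030) and, with TPM, C3 (0.023), Itgb7 (0.027) and Tln1 (0.048), as did Itga3 in TR1 (−0.014 with TPM). The numbers of genes called in the gene lists were less stable. Of their recalculated values, 387 were equal to the main number or within 1.5-fold of it, and 117 were not. Depth limits Itgax, with at most 26.5 counts. No paired analysis was possible because each group has 1 library.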

Other observations

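Of 14 genes of proteins that sit beside integrins in the membrane, 14 were listed, with 2 upregulated and 5 downregulated in TR1 and 1 and 3 in TR9 (median log2 ratios −0.26 and −0.23). Over all genes, 8.09% were upregulated and 13.0% downregulated in TR1 and 9.37% and 10.8% in TR9, with medians of −0.29 and −0.12. Cd63, a tetraspanin of primary granules and lysosomes, rose from 90.16 FPKM in control to 436.43 in TR1 and 470.13 in TR9. Cd82, another tetraspanin, fell from 56.96 to 11.64 and 13.74. Tspan33 had 569, 0 and 3 expected counts, and Cd226, an adhesion receptor of platelets and lymphocytes, had 155, 0 and 0.

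The genes with the pattern of log2 ratios most like each of the 9, over 3 libraries and among 10205 genes with at least 50 counts in a library, were found by the distance between pairs of ratios. For Itgam they were Tcf7, Sema6b and Tlr1 (distances 0.067 to 0.14). Itgal was closest to Rnf169, Nfil3 and Trps1 (0.095 to 0.14), and Itgb2 to Pole2, Lcmt2 and Rpl22l1 (0.040 to 0.056). Those nearest Itga4 were Gng2, Runx3 and Nlrc4 (0.10 to 0.13), and those nearest Itga6 were Abi3, Clstn1 and Plekha1 (0.074 to 0.22). Itgb1 had Wiz, Retreg2 and Zfp644 (0.017 to 0.020), Itga5 had Mettl23, Ddit3 and Nedd8 (0.025 to 0.026), and Selplg had Snapc1, Tmem131l and Rbm26 (0.0013 to 0.0081). Itgax had too few counts for this measure. With 3 libraries many genes share any given pattern.

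Several marker lists did not move as wholes. Among monocyte and macrophage genes, Csf1r fell from 23.81 FPKM to 6.47 in TR1 and 4.04 in TR9, and Cd68 was at 21.58, 159.24 and 58.72. Of 7 dendritic cell genes, 2 were upregulated and 3 downregulated in TR1, and 0 and 4 in TR9. Of 7 stem and progenitor genes, with summed FPKM of 208, 73.9 and 75.8, 1 was upregulated and 5 were downregulated in TR1, and 0 and 4 in TR9. Kit, one of them, at 73.49 in control, was at 29.13 in TR1 and 62.55 in TR9. In contrast, of 6 mast cell, basophil and eosinophil genes, 6 were downregulated in both. Of 6 B lineage genes 5 were listed, with summed FPKM of 12.0, 3.35 and 5.29, and 6 T and NK genes summed to 97.9, 195 and 155, nearly all of it Nkg7.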
